A study of Mus musculus with 6 samples.

Results

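The forkhead factors measured here were *Foxa1*, *Foxa2*, *Foxa3*, *Foxj1*, *Foxo1*, *Foxo3*, *Foxl2*, *Foxp1*, *Foxc1* and *Foxq1*, 10 genes taken by name out of the 20145 genes to which probes of the array could be matched. All 15 probes that carry a RefSeq accession of these genes were read on every array. The comparison was between the uteri of control mice and of mice that had lost the transcription factor SOX17 from the uterine epithelium, and it asked how the forkhead genes of the uterus stood after that loss. Of the 10 genes, 8 had a probe bright enough to test, and 3 of these differed between the genotypes. *Foxa2* was 22.8-fold lower, *Foxo1* was 1.48-fold lower and *Foxj1* was higher in the mice without epithelial *Sox17*. For *Foxj1* the fitted fold was 5.41, but 1 of the 3 control arrays was well above background, so the size is uncertain.

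Total RNA of whole uterine tissue was taken on gestation day (GD) 3.5 of natural pregnancy, shortly before embryos attach, and was hybridized to Agilent mouse expression arrays with 1 dye. The control group held 3 *Sox17* f/f females, which carry 2 floxed and undeleted alleles, and the other group held 3 *Sox17* ed/ed females, which carry the same floxed alleles together with LtfiCre. The lactoferrin (*Ltf*) promoter drives this Cre recombinase in the uterine epithelium from puberty on, so both groups share the floxed allele and a uterus that formed with *Sox17*, and *Sox17* remains in the endothelium of the stroma. All females were mated at 8-10 weeks of age, embryos were absent from the harvested uteri, and the labels number the arrays of a group as replicates without saying whether uteri were pooled, so p-values measure the spread between these samples. All 6 arrays lay on 1 slide with each genotype in its own line, so position on the slide and genotype cannot be told apart. None of the 6 arrays comes from mice that carry LtfiCre without floxed *Sox17*, so carriage of LtfiCre and loss of *Sox17* cannot be told apart.

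Forkhead proteins bind DNA through a shared winged helix domain and read related short sequences, so the members differ mainly in the cells that make them and in the signals that reach them. FOXA proteins open compact chromatin, and FOXA2 marks the glands of the uterus. FOXJ1 switches on the genes of motile cilia, FOXO proteins are held out of the nucleus when insulin and AKT signalling is active, FOXL2 maintains granulosa cells of the ovary and is made in uterine stroma, and FOXP proteins repress genes as dimers.

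The upstream sequences of the 2 members that fell and of 2 further forkhead genes are shown, because each of the latter lies head to head with a non-coding RNA that is described below. They are the 250 bases before a RefSeq transcript start of the GRCm38.p6 build, written 5′ to 3′ on the strand of the gene. Capitals mark the short forkhead core TGTTT and its reverse complement AAACA, and neighbouring matches that overlap run together.
Foxa2: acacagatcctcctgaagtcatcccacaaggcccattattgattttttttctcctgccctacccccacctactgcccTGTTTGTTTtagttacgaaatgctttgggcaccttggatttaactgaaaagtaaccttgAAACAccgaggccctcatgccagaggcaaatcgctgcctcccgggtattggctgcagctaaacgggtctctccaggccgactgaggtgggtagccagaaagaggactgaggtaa
Foxo1: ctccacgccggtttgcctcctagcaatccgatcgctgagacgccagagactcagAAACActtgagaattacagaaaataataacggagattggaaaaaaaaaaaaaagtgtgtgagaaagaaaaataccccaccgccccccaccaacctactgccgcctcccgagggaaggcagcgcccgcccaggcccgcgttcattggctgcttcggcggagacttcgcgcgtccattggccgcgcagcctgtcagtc
Foxl2: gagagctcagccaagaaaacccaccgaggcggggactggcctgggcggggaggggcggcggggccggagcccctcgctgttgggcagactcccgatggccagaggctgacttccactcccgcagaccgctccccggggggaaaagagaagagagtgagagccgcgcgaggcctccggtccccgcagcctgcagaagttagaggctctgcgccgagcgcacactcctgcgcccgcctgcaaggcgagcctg
Foxd2: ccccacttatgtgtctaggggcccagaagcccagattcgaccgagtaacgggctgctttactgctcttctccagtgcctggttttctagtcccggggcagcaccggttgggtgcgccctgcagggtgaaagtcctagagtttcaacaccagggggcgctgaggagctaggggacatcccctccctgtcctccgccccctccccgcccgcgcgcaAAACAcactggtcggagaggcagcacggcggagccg

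The *Foxa2* window lies at chr2:148046970-148047219 on the minus strand, ahead of the outermost of the 3 starts that the RefSeq table holds for this gene, and it contained 3 matches to the short forkhead core. The *Foxo1* window lies at chr3:52268087-52268336 on the plus strand and contained 1 match. The *Foxl2* window lies at chr9:98955357-98955606 on the plus strand, held no match, and was 70.8% G or C, against a median of 52.4% over all 32851 windows of this length. The *Foxd2* window lies at chr4:114908899-114909148 on the minus strand and held 1 match. The short core was found on either strand in 46.4% of all windows, so its presence does not set these genes apart. The longer core TGTTTAC was in 3.17% of all windows and, among the 12 windows of the 8 members that have one, in a *Foxa1* window. The letters ATTGTT, a core that SOX proteins read, were in 9.42% of all windows and in 1 of those 12, a *Foxp1* window. None of the 4 windows shown held ATTGTT on either strand. These matches describe letters only.

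The targeted gene was read first as a check of the labels. Its brighter probe gave log2 normalized signals of 12.21, 12.07 and 12.22 on the *Sox17* f/f arrays and 9.75, 9.59 and 9.81 on the *Sox17* ed/ed arrays. The other probe gave 12.31, 12.26 and 12.28 against 9.19, 9.25 and 9.49. *Sox17* was thus low on every array labelled ed/ed, with a difference of -2.45 at the brighter probe (SE 0.09, limma adjusted p = 2.67e-05), although neither file nor label states where either probe lies relative to the deleted part. Levels are comparable between arrays for a probe, and never between probes, because probes differ in brightness for reasons other than RNA.

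By the call of the scanner software, the share of spots well above background was 60.7% to 65.7% in control uteri and 56.8% to 59.4% in ed/ed uteri. A gene was called different at an unadjusted limma p under 0.01 and a fold change of at least 1.4, the thresholds of the study, and p-values adjusted over all 14854 genes tested are given beside it. At these thresholds 12.5% of all genes tested were called, 6.04% higher and 6.46% lower than in controls. Of the 8 members tested, 3 were called, 1 higher and 2 lower. The study had itself named *Foxa2* and *Foxo1* as changed on these arrays, so this count is not independent evidence. The groups did not overlap for 4 of the 8 members, where 40.6% of all genes tested had groups apart, and 5 of the 8 had a negative log2 fold change, as did 50.2% of all genes. At single probes, 4 of the 13 tested member probes were called, both *Foxa2* probes among them, against 9.86% of all probes.

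**Figure D1:**
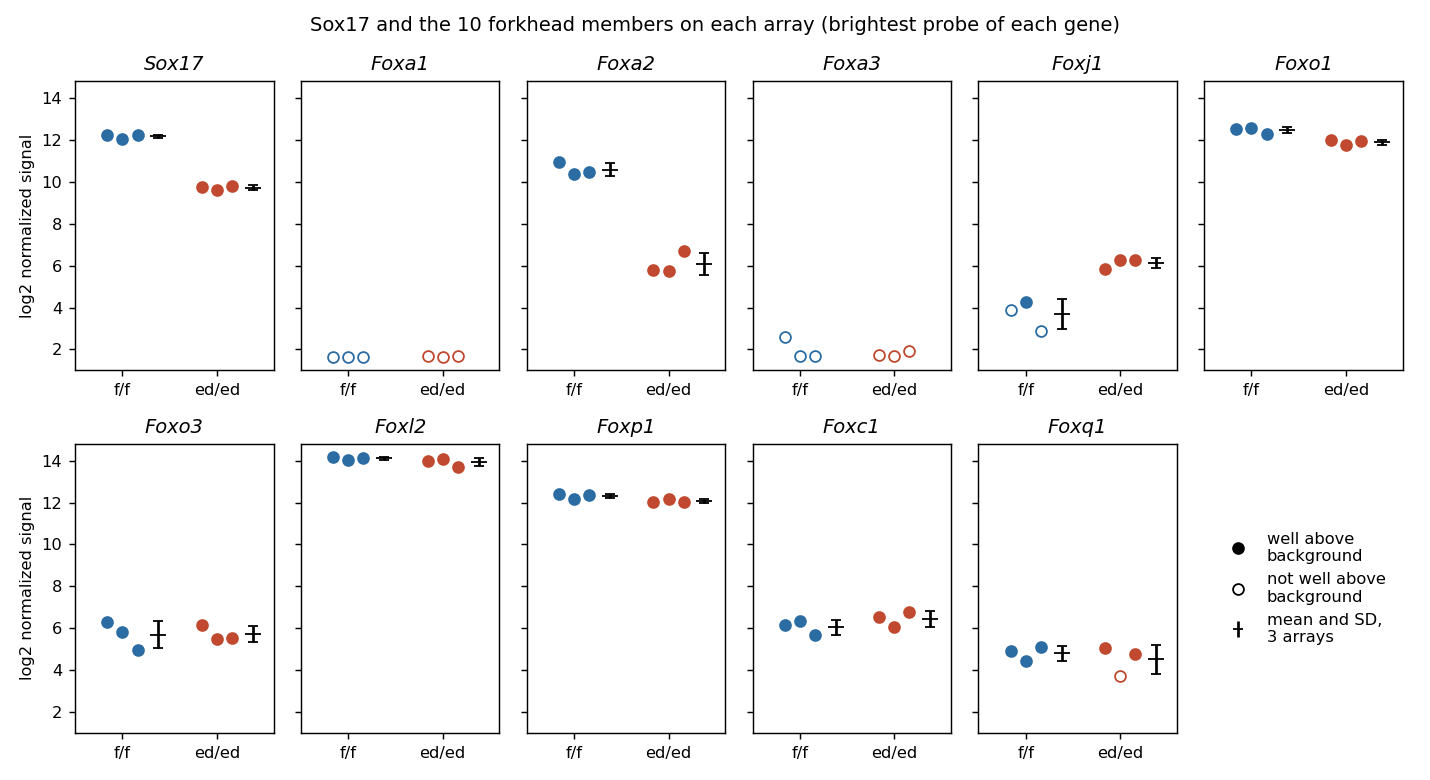
The log2 normalized signal (vertical axis) of *Sox17* and of the 10 members is plotted for each of the 3 *Sox17* f/f (blue) and 3 *Sox17* ed/ed (red) arrays, with open points where the probe was not well above background and bars for the mean and SD of 3 arrays where at least 1 array of the group was well above it. The *Foxa2* points drop from between 10.35 and 10.95 to between 5.75 and 6.68, the *Foxj1* points rise, and heights may be compared within a panel only.

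*Foxa2* had the largest change of the forkhead genes tested. At its brighter probe the log2 signal was 10.95, 10.35 and 10.45 on the *Sox17* f/f arrays and 5.80, 5.75 and 6.68 on the *Sox17* ed/ed arrays. Every ed/ed array lay below every f/f array, and the highest of them, the third replicate, was still far under the lowest control. The difference was -4.51 on the log2 scale (SE 0.29, 95% interval -5.21 to -3.80, limma adjusted p = 0.000225), and the transcript was well above background on all 6 arrays. In whole tissue, fewer cells that make a transcript and less of it in each cell cannot be told apart.

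The second *Foxa2* probe moved the same way. It read 8.29, 7.76 and 7.68 in *Sox17* f/f uteri and 2.04, 1.89 and 2.94 in *Sox17* ed/ed uteri, where no array was well above background. Only a bound can be given there. The signal was at least 12.9-fold lower, taking the lowest signal well above background on each ed/ed array as the limit (limma adjusted p over all probes = 0.000382). An exact permutation test of 3 against 3 arrays, two-sided, gave p = 0.1 for *Foxa2*, *Foxo1*, *Foxj1* and *Foxp1*, the smallest value that this design allows.

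The other FOXA genes gave no measurable level. *Foxa1*, a factor of endoderm and of hormone-responsive epithelia, read 1.64, 1.64 and 1.64 in *Sox17* f/f uteri and 1.70, 1.64 and 1.71 in *Sox17* ed/ed uteri. *Foxa3*, known from the liver and gut, read 2.58, 1.69 and 1.68 against 1.72, 1.70 and 1.91. Neither probe was well above background on any of the 6 arrays, so no difference between the FOXA paralogs could be tested and no rise of *Foxa1* or *Foxa3* beside the low *Foxa2* was detectable on these arrays.

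Genes known from the uterine glands, where FOXA2 is made, were lower with it. Of the 10 listed, all 10 were tested and 9 were called, all lower, against 6.46% of all genes. *Prss29*, *Ttr* and *Lif* passed the filter on low signal through the control arrays alone, and where all 6 arrays had to be well above background 5 of the 10 could be tested and 5 were called. The median log2 fold change was -3.59, and -3.38 with 3 genes at their bound, where all genes tested had a median of -0.00. Most of the listed genes are ones that the study itself named from these arrays, so the count is not independent evidence of their direction. *Prss29*, a serine protease of the glands, read between 12.46 and 13.29 in *Sox17* f/f uteri and was not well above background in any *Sox17* ed/ed uterus, at least 414-fold lower. *Spink1*, a secreted trypsin inhibitor, fell by 10.28 on the log2 scale with 2 of 3 ed/ed arrays well above background. *Ttr*, a carrier of thyroid hormone and retinol, was at least 39.3-fold lower, and *Prss28*, a sister protease of *Prss29*, fell by 7.02. The cytokine *Lif* was at least 3.75-fold lower by the same bound. *Il6st*, a receptor subunit through which LIF signals, changed least of the genes called, with a log2 fold change of -0.81, and *Calca*, which encodes calcitonin, had -0.69 and was not called (p above the threshold, limma adjusted p = 0.0610).

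Epithelial markers changed in both directions alongside *Foxa2*. Of 12 tested, 5 were called higher and 2 lower, against 6.04% and 6.46% of all genes, with a median log2 fold change of 0.34. The groups did not overlap for 9 of the 12, against 40.6% of all genes. The summed signal of the 12 ran from 55648 to 58729 in controls and from 56397 to 69391 in ed/ed uteri. This sum and those given below are weighted to the brightest probes. Here *Krt19* rose from between 11.86 and 12.11 in controls to between 13.88 and 14.32 in ed/ed uteri, so the sum does not describe the other markers. *Epcam* had a log2 fold change of 0.10 (limma adjusted p = 0.535). Among these markers, the keratins *Krt19* and *Krt7* rose by 2.10 and 1.46, while the claudins *Cldn3* and *Cldn7* fell by 1.16 and 0.72. The part of a changed epithelial make-up in the *Foxa2* values was not tested.

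*Foxj1* was the member that rose. The log2 signal was 3.90, 4.26 and 2.90 in *Sox17* f/f uteri and 5.86, 6.26 and 6.25 in *Sox17* ed/ed uteri. The 3 ed/ed arrays lay close together and above all controls, and the controls spread more widely near the background, with the second replicate alone well above it. *Foxj1* passed the filter on low signal through the ed/ed arrays. The difference was 2.44 on the log2 scale (SE 0.35, 95% interval 1.59 to 3.28, limma adjusted p = 0.00546). Its size depended on how the background was handled. With normexp background correction the difference was 0.70 and was still called, and when a probe had to be well above background on all 6 arrays, *Foxj1* could not be tested.

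No tested gene of motile cilia was called higher beside *Foxj1*. Of 30 listed, 29 were on the array, 21 were tested, and 2 were called, both lower, near the 6.46% of all genes called lower. Their median log2 fold change was 0.04. *Dnah5*, an outer arm dynein heavy chain, read 6.49, 6.76 and 6.62 in *Sox17* f/f uteri and 4.87, 2.60 and 3.92 in *Sox17* ed/ed uteri, with 1 ed/ed array well above background. *Hydin*, a protein of the central pair of the axoneme, fell by 1.22 (limma adjusted p = 0.00253). Genes of multiciliated cell differentiation were not called: *Mcidas* had a log2 fold change of 0.20 and *Myb* had 0.09. *Ccno* had 0.50, the highest of the list (limma adjusted p = 0.0675). *Gmnc*, also listed, could not be tested. The radial spoke genes *Rsph1*, *Rsph4a* and *Rsph9* had values of 0.04, 0.09 and -0.01, and the tektins *Tekt1*, *Tekt2* and *Tekt4* had -0.14, -0.20 and 0.16. With no filter on low signal 3 cilium genes were called, 1 of them higher. Without the second *Sox17* ed/ed replicate 4 were called, 2 in each direction, and with an ordinary linear model or with all arrays well above background 1 was called.

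Multiciliated cells abound in the oviduct, which adjoins the uterus. Of 6 oviduct markers listed, 5 were tested and 3 were called, all lower, against 6.46% of all genes. The calls were *Ovgp1*, *Pax8* and *Dnah5*. *Dnah5*, *Tekt1*, *Ccno* and *Sntn* are also on the cilium list, so the 2 counts are not separate. The summed signal ran from 2478 to 3974 in controls and from 1002 to 1073 in ed/ed uteri, and *Sntn*, a gene of motile cilia, could not be tested. *Ovgp1*, the secreted oviductal glycoprotein, read 10.70, 11.19 and 10.34 against 7.69, 7.75 and 8.04, and *Pax8*, a factor of Müllerian duct epithelium that the uterine glands also make, fell by 0.91. The other markers were not called: *Tekt1* had -0.14 with groups that overlapped, and *Ccno* had 0.50 with groups apart. The groups did not overlap for 4 of the 5, against 40.6% of all genes, 3 of them opposite in direction to *Foxj1* and *Ccno* in the same direction. The part of oviduct tissue in the *Foxj1* value was not tested.

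*Foxo1*, the FOXO factor known from the luminal epithelium at receptivity and from decidual cells, fell less than *Foxa2* and on both of its probes. The brighter probe read 12.52, 12.56 and 12.29 in *Sox17* f/f uteri and 11.98, 11.76 and 11.93 in *Sox17* ed/ed uteri. The second probe read 11.76, 11.86 and 11.74 against 11.32, 11.28 and 11.38. At both probes each ed/ed array lay below each control. The difference at the brighter probe was -0.57 (SE 0.10, 95% interval -0.81 to -0.32, limma adjusted p = 0.0130), and at the second it was -0.46 (limma adjusted p over all probes = 0.0155), which was under the fold threshold. A fold threshold of 2 ended the call for *Foxo1*.

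Its paralog *Foxo3*, known for holding ovarian follicles at rest, was not called. The log2 signal was 6.29, 5.83 and 4.98 in *Sox17* f/f uteri and 6.17, 5.47 and 5.55 in *Sox17* ed/ed uteri, so the groups overlapped and the third control was the lowest of all. The difference was 0.03 with a 95% interval of -0.84 to 0.90 (limma adjusted p = 0.963), which leaves room for a change of the size seen for *Foxo1* in either direction. It was -0.33 without the third *Sox17* f/f replicate and -0.19 without the first *Sox17* ed/ed replicate. The change of *Foxo1* minus that of *Foxo3* was -0.60 on the log2 scale, a difference that did not hold against the spread between arrays (SE 0.36, exact permutation p = 0.3 for the 1 pair of paralogs that could be compared).

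Target genes attributed to FOXO factors were called in both directions. Of 22 listed, 20 were tested and 4 were called, 2 lower and 2 higher, where 12.5% of all genes were called, with a median log2 fold change of 0.12. *Gadd45a*, a stress-induced regulator of growth arrest and DNA repair, read 10.05, 10.07 and 9.69 in *Sox17* f/f uteri and 7.74, 7.66 and 7.70 in *Sox17* ed/ed uteri, a difference of -2.24 (SE 0.11, limma adjusted p = 9.1e-05). *Pck1*, an enzyme of gluconeogenesis, read 8.30, 7.92 and 7.27 against 5.60, 6.01 and 5.86, a difference of -2.01 (limma adjusted p = 0.00403). Both were lower on every ed/ed array. *Pik3ip1*, an inhibitor of PI3-kinase, rose by 0.88, and *Txnip*, which restrains thioredoxin and glucose uptake, rose by 0.61. The insulin pathway genes *Irs2* and *Insr* had values of -0.79 and -0.10, the cell cycle inhibitors *Cdkn1a* and *Cdkn1b* had -0.12 and 0.23, and the antioxidant enzymes *Sod2* and *Cat* had 0.01 and 0.44, none of them called. The count was 3 with an ordinary linear model, 2 at a fold threshold of 2 and 7 with normexp background correction.

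Among the regulators that act on FOXO proteins, 1 gene was called. Of 20 listed, 19 were on the array, 18 were tested and *Sgk1* was called, higher, where 6.04% of all genes were called higher. *Sgk1*, a kinase related to AKT that phosphorylates FOXO proteins and activates the epithelial sodium channel, read 10.99, 10.85 and 10.60 in *Sox17* f/f uteri and 12.71, 12.19 and 12.58 in *Sox17* ed/ed uteri. The groups did not overlap, and the difference was 1.68 (SE 0.17, limma adjusted p = 0.00124). *Akt1* and *Akt2*, which encode kinases that phosphorylate FOXO proteins, had log2 fold changes of -0.01 and 0.03. *Ywhaz*, which encodes a 14-3-3 protein that binds phosphorylated FOXO, had -0.41 (limma adjusted p = 0.0218) and missed the fold threshold. The arrays measure RNA, so phosphorylation and the place of FOXO proteins in the cell were not measured.

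**Figure D2:**
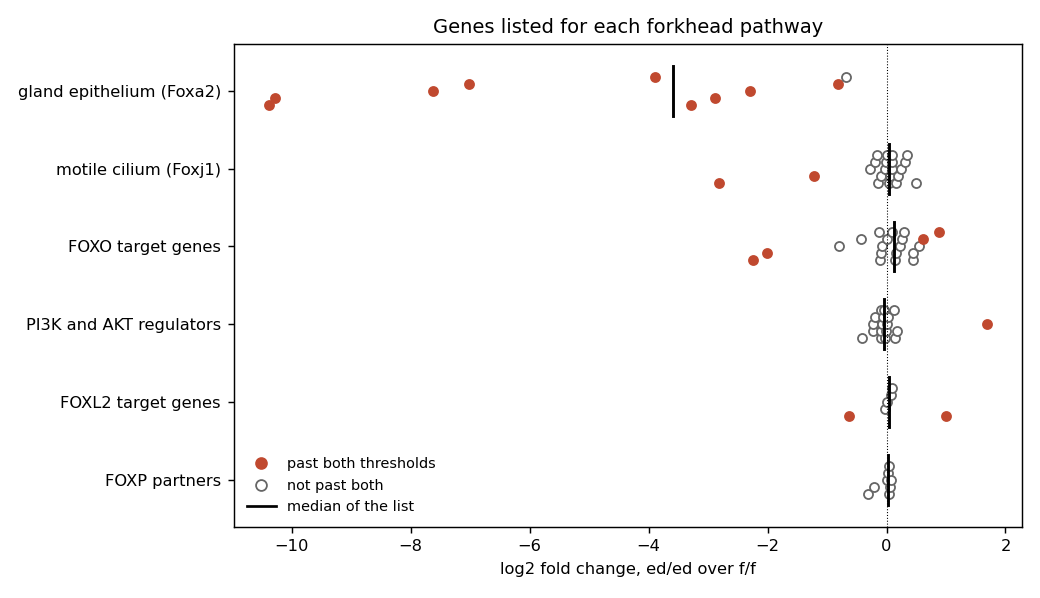
Each point is a tested gene of a list attached to a forkhead member, placed by its log2 fold change, ed/ed over f/f, with red points past both thresholds and a black line at the median of the list. The gland genes lie left of 0 around a median of -3.59, 3 of them with no ed/ed array well above background so that their fitted values are not bounds, and the medians of the other lists lie between -0.05 and 0.12.

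*Foxl2* was not called. Its brighter probe read 14.18, 14.04 and 14.11 in *Sox17* f/f uteri and 13.96, 14.09 and 13.71 in *Sox17* ed/ed uteri, and the other probe read 5.54, 5.14 and 5.45 against 5.37, 5.53 and 5.31. The groups overlapped at both probes. The difference was -0.19 at the brighter probe (95% interval -0.45 to 0.08, limma adjusted p = 0.281) and 0.02 at the other. FOXL2 is also made in the ovary. Of 8 ovarian markers listed, 3 were tested and 0 were called by limma, where 12.5% of all genes were called. At an unadjusted p under 0.05 there were 0, and the summed signal ran from 786 to 977 against 781 to 913. *Amh*, *Fshr*, *Cyp11a1*, *Zp3* and *Oosp1* were not well above background on enough arrays to be tested.

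Of 10 genes attributed to FOXL2, all were on the array, 6 were tested, and 2 were called, 1 in each direction, where 12.5% of all genes were called. *Fst*, the activin antagonist follistatin, read 12.45, 12.42 and 12.26 in *Sox17* f/f uteri and 11.59, 11.97 and 11.67 in *Sox17* ed/ed uteri, a difference of -0.63 (limma adjusted p = 0.0146). *Ptgs2*, the inducible prostaglandin synthase, rose from between 5.59 and 5.79 to between 6.30 and 6.91 (limma adjusted p = 0.0115). *Star*, *Cyp17a1* and *Esr2* had values of -0.02, 0.07 and 0.09. At a fold threshold of 2 neither *Fst* nor *Ptgs2* was called.

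*Foxl2os*, a non-coding RNA, starts 296 bases away from the *Foxl2* start and runs in the opposite direction, so that the *Foxl2* window printed above lies between both starts. It was picked with its values seen. Its brighter probe read 7.70, 7.74 and 7.96 in *Sox17* f/f uteri and 8.23, 8.21 and 8.46 in *Sox17* ed/ed uteri, a difference of 0.50 (limma adjusted p over all probes = 0.0449) with no overlap. A second *Foxl2os* probe gave 0.31 and was not called (limma adjusted p = 0.389). Whether *Foxl2os* and *Foxl2* changed unequally was not tested.

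*Foxp1*, a widely made repressor, was lower by a small amount that missed the thresholds. Its brightest probe read 12.41, 12.18 and 12.35 in *Sox17* f/f uteri and 12.01, 12.18 and 12.01 in *Sox17* ed/ed uteri. The lowest control and the highest ed/ed array nearly met, although the groups did not overlap. The difference was -0.25 (95% interval -0.47 to -0.03, limma adjusted p = 0.109). A second probe gave -0.27 with groups apart and the remaining one gave -0.08 with groups that overlapped, and none of the 3 was called. Of 10 co-repressor partners of FOXP proteins, 8 were tested. At both thresholds limma called 0, where it called 12.5% of all genes, and the ordinary linear model also called 0. By limma, 1 had an unadjusted p under 0.05. That gene was *Hdac2*, a histone deacetylase, with a log2 fold change of -0.31 (limma adjusted p = 0.0390). *Hdac1*, *Ctbp1* and *Mta2* had values of 0.05, 0.06 and 0.08.

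*Foxc1*, a factor of mesenchyme and vessels, read 6.14, 6.33 and 5.67 in *Sox17* f/f uteri and 6.53, 6.05 and 6.79 in *Sox17* ed/ed uteri. The groups overlapped, and the difference was 0.41 (95% interval -0.17 to 0.99, limma adjusted p = 0.287). *Foxq1*, known from hair and from epithelia, read 4.89, 4.42 and 5.13 against 5.05, 3.73 and 4.77, with the second *Sox17* ed/ed replicate not well above background. Its difference was -0.30 (95% interval -1.19 to 0.59, limma adjusted p = 0.619), and it was 0.095 without that replicate. The interval for *Foxq1* allows a change of the size of *Foxo1* in either direction. Markers of endometrial stroma and of endothelium, which carry *Foxc1*, had 0 of 10 and 0 of 8 tested genes called by limma. Over all genes tested 12.5% were called. In each of these lists 6 genes had an unadjusted p under 0.05. At an adjusted limma p under 0.05 there were 2 and 6, against 18.8% of all genes. The groups did not overlap for 5 and 7, against 40.6% of all genes. All 8 endothelial markers had a negative log2 fold change, with a median of -0.34 and a summed signal of 10713 to 11012 in controls and 8453 to 8891 in ed/ed uteri, and their part in the *Foxc1* value was not tested.

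**Figure D3:**
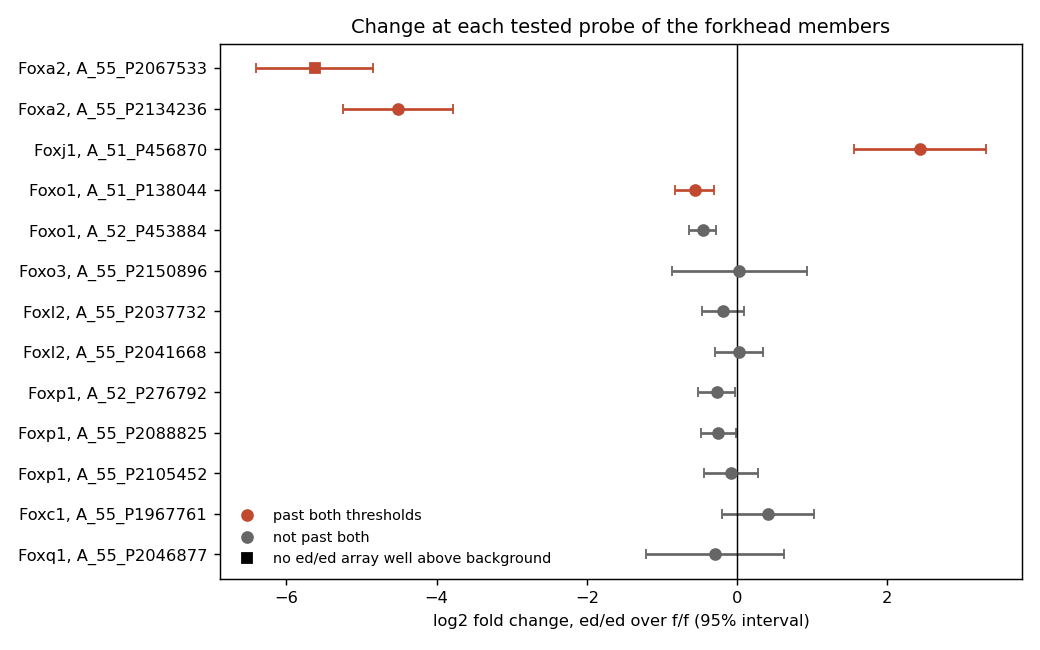
The log2 fold change, ed/ed over f/f, is drawn with its 95% interval for each of the 13 tested probes of the members, in red where both thresholds were passed and as a square where no ed/ed array was well above background. Both *Foxa2* probes lie farthest to the left, the *Foxj1* probe lies at 2.44, both *Foxo1* probes lie left of 0, and the remaining probes lie between -0.30 and 0.41.

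The rest of the forkhead family was read in the same fit. Of 34 further genes, all with a probe, 16 were tested and 2 were called, both lower, a share equal to the 12.5% of all genes, with a median log2 fold change of -0.10. Without the third *Sox17* f/f replicate 4 were called, and at a fold threshold of 2 *Foxd2* alone was. Of the 18 that could not be tested, 11 were not well above background on any array. *Foxf1*, a factor of gut and lung mesenchyme, and *Foxp3*, which marks regulatory T cells, were among 3 that were well above background in 2 controls and in 0 ed/ed uteri. The lowest log2 signal well above background was 3.19 to 3.89 on control arrays and 4.13 to 4.34 on ed/ed arrays, so detection was not equal. Mean signals were 4.27 in controls and 3.93 in ed/ed uteri for *Foxf1*, and 4.15 and 4.01 for *Foxp3*. Groups overlapped for both, so no loss can be read from these calls.

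*Foxd2*, known from mesenchyme of kidney and face, had the larger change of these 2. It read 7.97, 7.61 and 7.83 in *Sox17* f/f uteri and 6.17, 6.50 and 6.18 in *Sox17* ed/ed uteri, well above background on all 6 arrays and without overlap. The difference was -1.52 (SE 0.13, limma adjusted p = 0.000749), or 2.87-fold. Its neighbour *Foxd2os*, a non-coding RNA that lies head to head with it and was picked with its values seen, read 7.06, 6.90 and 7.05 against 6.24, 6.24 and 6.04. *Foxd2os* had a difference of -0.83 (limma adjusted p over all probes = 0.00454) with groups apart.

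*Foxs1*, known from pericytes and other cells around vessels, read 9.42, 9.42 and 9.18 in *Sox17* f/f uteri and 8.72, 8.84 and 8.81 in *Sox17* ed/ed uteri. The groups did not overlap, and the difference was -0.55 (limma adjusted p = 0.00935). Of the endothelial markers given above 0 of 8 were called by limma, where 12.5% of all genes were called. At an unadjusted p under 0.05 there were 6, and the median was -0.34. At an adjusted limma p under 0.05 there were also 6, against 18.8% of all genes. The groups did not overlap for 7 of the 8, against 40.6% of all genes. Of 8 smooth muscle markers 1 was called, *Actg2* at -0.64, where 12.5% of all genes were called. A negative log2 fold change was found for 7 of the 8, against 50.2% of all genes. For 5 of the 8 the groups did not overlap, against 40.6% of all genes. Their median was -0.28, with a summed signal of 495359 to 547082 in controls and 369268 to 444745 in ed/ed uteri. The part of vessel and muscle cells in the *Foxs1* value was not tested. *Foxi1*, which sets up ionocytes of kidney and inner ear, had the highest fitted log2 fold change outside the members. *Foxi1* passed the filter on low signal through its ed/ed arrays. It read between 2.97 and 4.97 in controls and 5.96, 5.16 and 5.93 in ed/ed uteri, with 1 control array well above background, a difference of 1.70 that was not called (SE 0.51, limma adjusted p = 0.0685). *Foxm1*, a driver of mitotic genes, had 0.38 at one probe and 0.33 at the other, neither called. The ubiquitous *Foxj3*, *Foxk1*, *Foxk2* and *Foxp4* had values of -0.00, -0.10, -0.16 and -0.10. One outlier spot was left out of the fit of *Foxo6*, which had 0.15 at its brighter probe and was not called. A second *Foxo6* probe was well above background in 3 controls and in 0 ed/ed uteri. That probe was at least 1.15-fold lower by its bound, with groups apart, and was not called (limma adjusted p over all probes = 0.0714).

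**Figure D4:**
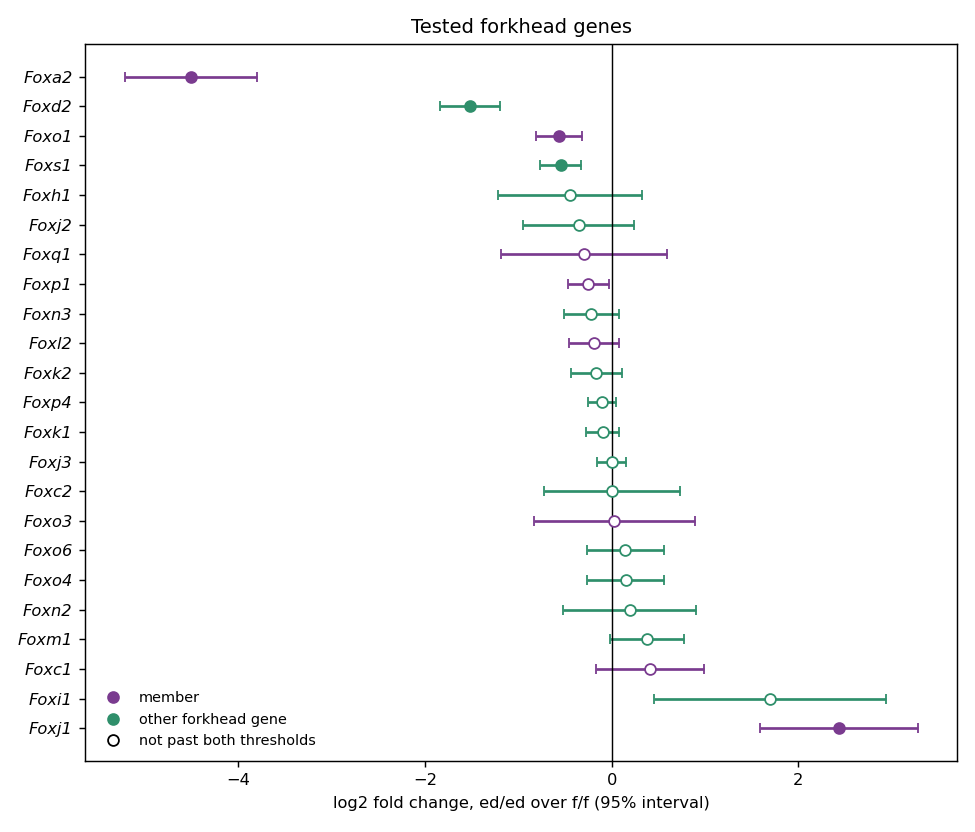
The log2 fold change, ed/ed over f/f, is drawn with its 95% interval for the 8 tested members (purple) and 15 of the other tested forkhead genes (green), filled where both thresholds were passed. *Foxa2* at -4.51 and *Foxj1* at 2.44 mark the ends, *Foxd2*, *Foxo1* and *Foxs1* follow on the lower side, and the other intervals lie near 0 or are wide. *Foxh1* was well above background on 3 control and 0 ed/ed arrays, so its fitted value is not a measured difference.

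The 3 called members had close companions across the arrays. By root mean square distance between log2 profiles over the 6 arrays, each centred on its own mean, the genes nearest to *Foxa2* were *Tmprss11a*, a serine protease, *Has1*, a hyaluronan synthase, and *Tacr1*, the substance P receptor, at distances of 0.31, 0.36 and 0.36 log2 units. These genes had log2 fold changes of -4.95, -4.20 and -3.86. Nearest to *Foxj1* were *Zbtb32*, a zinc finger repressor, *Muc4*, a membrane mucin, and *Ascl4*, a basic helix-loop-helix factor, at 0.16, 0.17 and 0.23, with log2 fold changes of 2.30, 2.43 and 2.16. Nearest to *Foxo1* were *Synpo*, which encodes an actin-associated protein, *Slc35d1*, a transporter of nucleotide sugars, and *Erich1*, at 0.04, 0.04 and 0.05. The profile of a changed gene is mostly its difference between the genotypes, so likeness over 6 arrays describes equal changes.

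**Figure D5:**
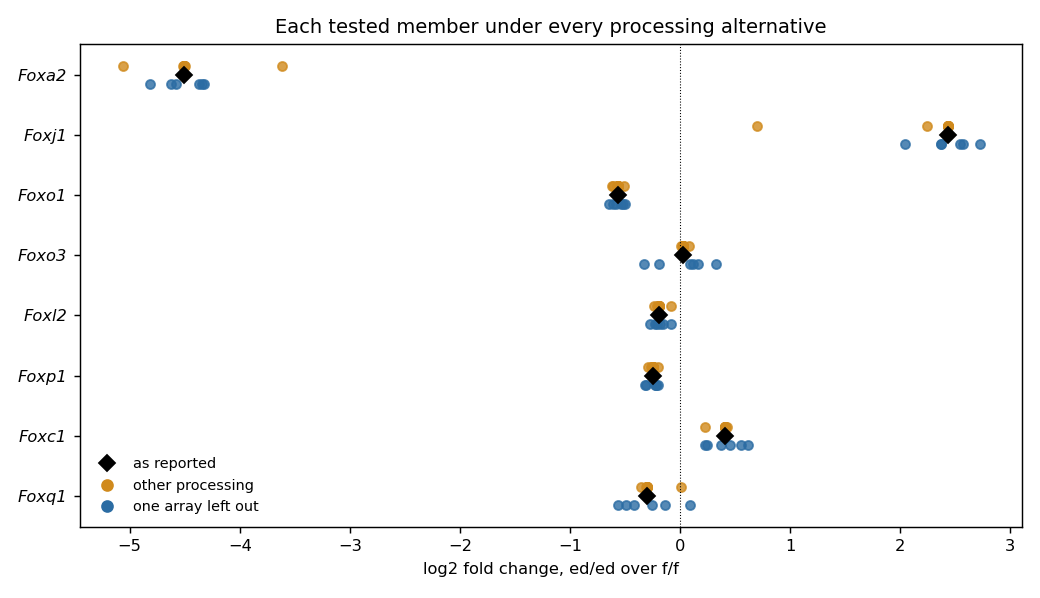
The log2 fold change, ed/ed over f/f, of each tested member is shown as reported (diamond), under the other processing choices (orange) and without each array singly (blue). *Foxa2* stays between -5.06 and -3.62, *Foxo1* between -0.65 and -0.50 and *Foxj1* between 0.70 and 2.72, while *Foxo3* and *Foxq1* fall on both sides of 0.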

How the data were processed

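For RNA of 3 control and 3 ed/ed uteri on Agilent G3 Mouse GE arrays, the authors deposited a scanner file for each, written by Feature Extraction 11.0.1.1 per the file headers (the submitters' processing notes name 9.1). The deposited intensity used was the processed signal, background-subtracted and not normalized between arrays; the deposited table of processed intensity values held the same signal within 0.191%. The 3671 control spots of each array, beside 59305 others, and 169 to 302 outlier spots per array were left out. Intensities were put on the log2 scale and quantile normalized as in the authors' methods, replicate spots were averaged, and a probe was kept (32744 of 55681) if at least 3 of 6 arrays were well above background. Accessions were matched to genes with the RefSeq table of GRCm38.p6 (26582 probes); the array design is on another build, so the table served for names and neighbours, and the coordinates are those of the RefSeq promoter windows. The brightest probe stood for a gene. A gene not well above background in a genotype was given a bound from the mean over its arrays of the lowest normalized signal of probes well above background.

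Genotypes were compared with limma 3.58.1 in R 4.3.3 over all 14854 genes (or all kept probes), with Benjamini-Hochberg adjustment, and plots were made with Python 3.11.15 and matplotlib 3.10.9. The model was tested on simulated data. The members, gene lists and marker lists were chosen with earlier results of these data known. Named were all members, *Sox17*, other forkhead genes past the thresholds or at the extremes, at most 4 called genes in each direction per list, and the 3 nearest profiles of each called member. Other genes of the lists were named with their values seen. The number of arrays limits the precision. A few genes that entered the fits and counts are not reported here by name.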

Additional observations from a re-analysis of the deposited data

How the results depend on the processing

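The 3 calls among the members held under the shift to the 75th percentile, normexp background correction, no filter on low signal, the mean of the probes, the deposited values, an ordinary linear model, an intensity trend and every omission of an array (3 called each time). *Foxo1* was lost at a fold threshold of 2 (-0.57), and *Foxj1* could not be tested where all arrays had to be well above background. Over the alternatives *Foxa2* ranged from -5.06 to -3.62, *Foxj1* from 0.70 to 2.72 and *Foxo1* from -0.65 to -0.50, with adjusted p of at most 0.00863, 0.0423 and 0.0540. With an array left out, *Foxo3* ran from -0.33 to 0.32 and *Foxq1* from -0.56 to 0.095. The sign turned for *Foxo3* without *Sox17* f/f replicate 3 (-0.33) and without *Sox17* ed/ed replicate 1 (-0.19), and for *Foxq1* with normexp (0.0051) and without *Sox17* ed/ed replicate 2 (0.095). Other forkhead genes called numbered 1 at a fold threshold of 2 and 2 to 4 with an array left out. Cilium genes called numbered 1 with an ordinary linear model, 1 with all arrays well above background and 2 to 4 with an array left out. FOXO targets called numbered 7 with normexp, 2 at a fold threshold of 2 and 3 to 5 with an array left out. At an adjusted p under 0.05 with no fold threshold, 2 PI3K and AKT regulators and 1 FOXP partner were called. Gland genes called numbered 5 where all arrays had to be well above background, since 5 genes were then tested, and 9 to 10 with an array left out. No FOXL2 target was called at a fold threshold of 2 (0). Except for the counts limited by the genes tested, the cause was not tested.

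Normexp was run on the median signals, an alternative chosen after seeing the data, because the mean signals named at first are not a column of the files used; the latter was not run. Over all genes the number called ran from 818 at a fold threshold of 2 to 2035 without *Sox17* f/f replicate 3, and was 2798 at an adjusted p under 0.05, against 1857 as reported. Same-numbered arrays did not deviate together (correlations 0.06, -0.11 and -0.00), so the numbers were taken as names. With the number as a replicate block 3 members, 2 other forkhead genes and 1797 genes in all were called.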
